A study of Mus musculus with 2 samples.

Results

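The genes described here are the D-type cyclins Ccnd1, Ccnd2 and Ccnd3, their kinases Cdk4 and Cdk6, the CDK inhibitors Cdkn1a, Cdkn1b and Cdkn2c, and Rb1, the retinoblastoma gene. These 9 genes of 28205 features were chosen by name, for their place in the pathway that carries a blood stem cell out of quiescence, and each had a feature in the counts of both libraries. The cells came from lineage-depleted mouse bone marrow and were captured on inDrops, a droplet method that tags each transcript with a cell barcode and a unique molecular identifier (UMI). A rare GFP+ fraction of Mds1-GFP/+ Flt3-Cre mice, gated on DAPI-GFP+ only, was pooled with long-term hematopoietic stem cells (LT-HSCs) of wild-type mice, gated as DAPI-Lin-cKit+Sca+CD48-CD150+. In the reporter mice the GFP cassette sits between loxP sites and Cre is driven from Flt3, so a cell with a history of Flt3 expression would lose the cassette, while the wild-type cells carry neither allele. Mds1 is the first part of the Mecom locus, a gene of stem cells. The sources used here name neither the ages and numbers of mice nor the sort that each cell came from.

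Both libraries are aliquots of 1 pool, so the pool is the only sample (n = 1), the aliquots are technical, and no test between groups of cells was possible. Differences in the members between classes of cells are given as ratios of summed levels with an exact 95% interval for counting error; other sets are described by their levels. The labels state 2147 and 8662 cells, which are all the barcodes in the counts, and 46 GFP cells after a filter they do not describe. Of those 10809 barcodes, 3402 were kept as cells, 1574 in aliquot 1 and 1828 in aliquot 2, with medians of 946.5 and 2071.5 UMIs. The aliquots shared 461 barcode names, of which 55 were kept in both. The mean correlation of cells with the same name was 0.277, against 0.262 for cells with different names. Without the shared cells, the counts of members called below were the same, 6, 3 and 0. All 16 genes of the LT-HSC marker list had UMIs, and 1495 kept cells held at least 2 of those UMIs after thinning to 500. After the same thinning 907 cells held at least 2 erythroid or megakaryocyte UMIs, of which 353 were also LT-HSC marker cells, and 41 held at least 3 granulocyte or basophil UMIs, in marrow depleted with Gr1. Scrublet, a doublet caller, marked 25 cells, which stayed in the results.

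D cyclins are made in response to mitogens and bind CDK4 or CDK6, and the active kinase phosphorylates RB, which then releases E2F factors to switch on genes for DNA replication. INK4 inhibitors such as p18, the product of Cdkn2c, bind CDK4 and CDK6 themselves, while the CIP/KIP inhibitors p21 and p27, from Cdkn1a and Cdkn1b, bind cyclin-CDK complexes. In blood stem cells, CDK6 is known for setting how quickly a quiescent cell enters the cycle, and p27 and p57 for holding cells in quiescence.

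Among the D cyclins, Ccnd2 was the one these cells carried most. Ccnd2 had 4235 UMIs in kept cells and a level of 747 CPM (725 to 770), where CPM is the UMIs of a gene per 1000000 UMIs of the same cells, 823 CPM in aliquot 1 and 716 CPM in aliquot 2. It ranked 148 among the 22476 features detected, and 56.6% of kept cells held at least 1 of its UMIs. Ccnd3 stood at 224 CPM (212 to 237), with 245 CPM in aliquot 1 and 216 CPM in aliquot 2. Ccnd1 stood at 68.8 CPM (62.1 to 76.0), with 82.3 CPM in aliquot 1 and 63.3 CPM in aliquot 2. The intervals of the 3 cyclins did not overlap and their order was the same in both aliquots. Ccnd2 thus made up 71.8% of D cyclin UMIs (70.7 to 73.0%), Ccnd3 21.5% and Ccnd1 6.62%. UMIs count molecules caught at the poly(A) end, so these levels were not divided by gene length, and capture may still differ between genes.

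The kinases were both abundant and close to each other. Cdk6 stood at 403 CPM (387 to 420; 438 CPM in aliquot 1 and 389 CPM in aliquot 2), and Cdk4 at 346 CPM (331 to 361; 382 CPM in aliquot 1 and 331 CPM in aliquot 2). Cdk6 was the more unevenly spread of the pair: 31.2% of kept cells held its UMIs and 37.2% held those of Cdk4, and the fullest cell had 15 Cdk6 UMIs, against 8 for Cdk4.

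The inhibitors and Rb1 were scarcer than the kinases. Cdkn1b had 82.4 CPM (75.1 to 90.2), 82.3 CPM in aliquot 1 and 82.4 CPM in aliquot 2, a level whose interval overlapped that of Ccnd1. Rb1 had 23.1 CPM (19.3 to 27.4), with 18.3 CPM in aliquot 1 and 25.1 CPM in aliquot 2. Cdkn2c had 20.3 CPM (16.8 to 24.4), with 20.7 CPM in aliquot 1 and 20.1 CPM in aliquot 2, so Rb1 and Cdkn2c did not differ beyond counting error. Cdkn1a was lowest, with 47 UMIs in all and 8.29 CPM (6.09 to 11.03). No other member was under 100 UMIs, and values of Cdkn1a are given only for completeness.

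**Figure D1:**
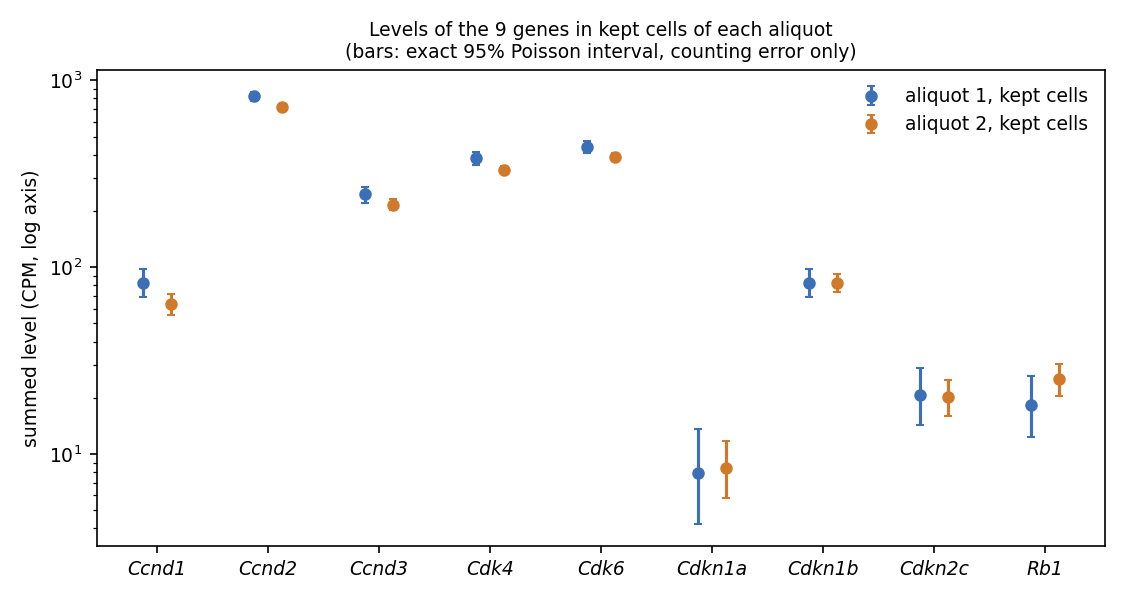
Summed level of each of the 9 genes in kept cells, in CPM on a log axis, for aliquot 1 (blue) and aliquot 2 (orange), with exact 95% Poisson intervals for counting error. Ccnd2 lies highest at 823 and 716 CPM, Cdk6 and Cdk4 follow, and Cdkn1a lies lowest at 7.92 and 8.44 CPM.

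Barcodes of low depth had nearly the same makeup as the cells for the common members. In barcodes under 200 UMIs, taken to hold mostly free RNA or debris, Ccnd2 stood at 633 CPM (569 to 703), Cdk4 at 345 CPM and Cdk6 at 342 CPM. Of these 6492 barcodes, 6291 were of aliquot 2. How much free RNA the cells hold was not measured, so a UMI of these genes in a given cell is no proof that the cell expressed it. The 16 cells with at least 3 UMIs of the neutrophil granule genes Camp, Ltf and Ngp give the level in another cell type. They held 1 Ccnd2 UMI, 26.7 CPM (0.675 to 149), and 6.25% of them had a Ccnd2 UMI at a median of 2220.5 UMIs, against 56.6% of all kept cells at a median of 1418.5 UMIs. Ccnd1 and Rb1 had 0 UMIs there, which allows up to 79.97 CPM. Ccnd3 ran the other way: the granule cells held 27 of its UMIs, 720 CPM (474 to 1047), above the level in all kept cells, and 68.8% of them had at least 1. These are 16 cells of a pool, and the level was not tested over animals.

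The members also differed between cells with stem cell transcripts and cells with erythroid or megakaryocyte transcripts. Cdk6 stood at 511 CPM (476 to 548) in the erythroid or megakaryocyte marker cells and at 219 CPM (200.3 to 240.0) in the LT-HSC marker cells. Ccnd2 ran the other way, with 702 CPM (661 to 745) in the erythroid or megakaryocyte marker cells and 855 CPM (817 to 895) in the LT-HSC marker cells. Cdk4 had 403 CPM in the erythroid or megakaryocyte marker cells and 322 CPM in the LT-HSC marker cells. The sets share 353 cells, and no ratio was taken between them. Levels of these marker lists also differ with the cell cycle, as given below. Cell type and cycle state cannot be told apart in these levels.

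To follow the genes through the cell cycle, cells were thinned to 500 UMIs and sorted by 46 S phase genes and 49 mitotic genes, none of them a member. The 762 cells with no UMI of either list after thinning are called cells with no cycle transcripts. The 402 G2/M cells had at least 3 mitotic UMIs after thinning. The 300 S phase cells had at least 4 S phase UMIs and no mitotic one, and the other 1938 cells fell in between. In whole counts, cells with no cycle transcripts held 1066 S phase list UMIs (991 CPM) and 393 mitotic list UMIs (365 CPM). The S phase list stood at 9674 CPM in S phase cells and the mitotic list at 11563 CPM in G2/M cells. S phase cells held 558 mitotic list UMIs in whole counts (1009 CPM). Levels were then summed from the whole, unthinned counts. A feature was called where its ratio was at least 1.5, or at most the inverse, on the same side of 1 in both aliquots, with at least 10 UMIs expected in the smaller cell set. Features of the cycle lists were left out of this background.

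Ccnd2 was lower in G2/M cells. Its level by class was 825 CPM in cells with no cycle transcripts, 833 CPM in between, 748 CPM in S phase and 353 CPM in G2/M. The G2/M level was 0.427 times that of cells with no cycle transcripts (0.375 to 0.486), at 0.371 times in aliquot 1 and 0.451 times in aliquot 2. After thinning to equal depth, 13.9% of G2/M cells held a Ccnd2 UMI (10.7 to 17.7%), against 32.4% of cells with no cycle transcripts (29.1 to 35.9%). Without thinning the shares were 40.8% at a median of 1891 UMIs and 55.2% at a median of 1230 UMIs. S phase cells did not differ from cells with no cycle transcripts beyond counting error, at 0.907 times (0.805 to 1.02), so the low level was that of G2/M cells, at 0.471 times the S phase level (0.406 to 0.547).

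Ccnd1 was highest in S phase cells. Its level was 57.6 CPM in cells with no cycle transcripts, 72.6 CPM in between, 125 CPM in S phase and 34.6 CPM in G2/M. S phase cells were at 2.17 times the level of cells with no cycle transcripts (1.51 to 3.10), from 69 and 62 UMIs, with 3.27 times in aliquot 1 and 1.61 times in aliquot 2. In the LT-HSC marker cells alone the S phase ratio was 1.85, from 15 and 38 UMIs, too few to be called. G2/M cells were at 0.600 times that level (0.377 to 0.938), from 31 UMIs, and at 0.277 times the S phase level (0.175 to 0.429). In aliquot 2 alone the G2/M ratio was 0.672, just short of the 1.5-fold limit, and with looser classes it was 0.891, so the lower level in G2/M was no longer called there.

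Ccnd3 differed less between classes. It stood at 190 CPM in cells with no cycle transcripts, 222 CPM in between, 266 CPM in S phase and 247 CPM in G2/M. The G2/M level was 1.29 times (1.07 to 1.57) and the S phase level 1.40 times (1.12 to 1.73) that of cells with no cycle transcripts, neither past 1.5-fold. With Ccnd2 low and Ccnd3 not, the makeup of the D cyclin pool shifted. Ccnd3 was 17.7% of D cyclin UMIs in cells with no cycle transcripts (15.6 to 20.1%), 19.7% in between, 23.3% in S phase and 38.9% in G2/M (34.9 to 43.1%). In G2/M cells this share was 44.5% in aliquot 1 and 36.3% in aliquot 2. The share of Ccnd2 ran 76.9%, 73.9%, 65.7% and 55.6% over the same classes. Granulocyte transcripts moved with the G2/M class, at 7157 CPM summed over 12 genes in G2/M cells and 331 CPM in cells with no cycle transcripts. Without the 41 granulocyte or basophil marker cells the Ccnd3 ratio was 1.18.

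**Figure D2:**
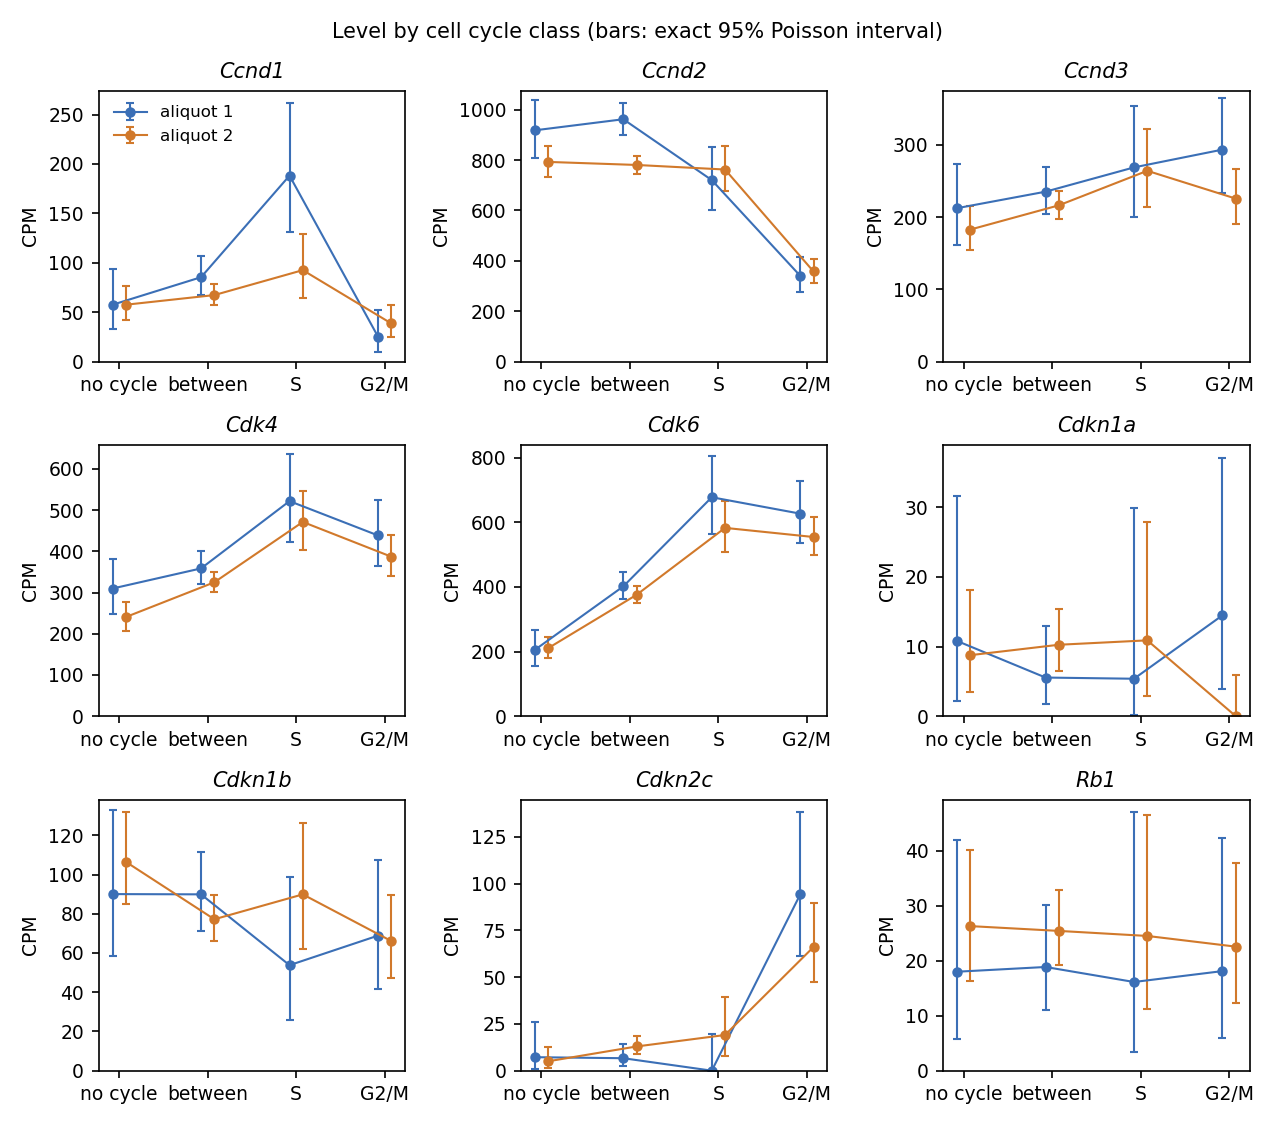
Level of each gene (CPM, linear axes from 0, a scale of its own per panel) in cells with no cycle transcripts, in between, in S phase and in G2/M, for aliquot 1 (blue) and aliquot 2 (orange) with exact 95% Poisson intervals. Ccnd2 drops in G2/M to 341 and 358 CPM, Ccnd1 is highest in S phase, Cdk4 and Cdk6 are higher in both cycling classes, and Cdkn2c is highest in G2/M, at 94.2 and 66.1 CPM.

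Both kinases were higher in cycling cells, Cdk6 more so. The level of Cdk6 was 209 CPM in cells with no cycle transcripts, 383 CPM in between, 615 CPM in S phase and 577 CPM in G2/M. S phase cells were at 2.94 times the level of cells with no cycle transcripts (2.48 to 3.50; 3.30 times in aliquot 1 and 2.77 times in aliquot 2). G2/M cells were at 2.76 times (2.36 to 3.24; 3.05 times in aliquot 1 and 2.64 times in aliquot 2). At equal depth 24.7% of S phase cells and 23.1% of G2/M cells held a Cdk6 UMI, against 8.66% of cells with no cycle transcripts. Of the features measured in S phase, 98.6% had a lower ratio than Cdk6.

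Cdk4 followed with smaller ratios. Its level was 258 CPM in cells with no cycle transcripts, 334 CPM in between, 488 CPM in S phase and 403 CPM in G2/M. S phase cells were at 1.89 times the level of cells with no cycle transcripts (1.59 to 2.24) and G2/M cells at 1.56 times (1.33 to 1.83), which was 1.42 times in aliquot 1 and 1.61 times in aliquot 2. Cdk6 was 44.7% of the UMIs of both kinases in cells with no cycle transcripts (40.3 to 49.2%), 53.4% in between, 55.7% in S phase and 58.9% in G2/M (55.5 to 62.2%). The LT-HSC marker list moved with the classes, at 3885 CPM in cells with no cycle transcripts, 1985 CPM in S phase and 1604 CPM in G2/M. The megakaryocyte list was at 246, 620 and 711 CPM in the same classes, and the erythroid list at 1476, 1862 and 1893 CPM. The part of these cell types in the kinase levels was not tested beyond the values that follow. Within the LT-HSC marker cells alone, Cdk6 was still at 2.74 times in S phase and 2.17 times in G2/M, and Cdk4 at 1.69 and 1.58 times. In levels taken from thinned UMIs the S phase ratio of Cdk4 was 1.42, under the limit.

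Since Cdk4 and Cdk6 were higher together, the promoters of the members were searched for 3 motifs, in the 250 bases before each RefSeq start on GRCm38.p6. The table used held 6 of the 9 members in 9 windows; Ccnd1, Ccnd2 and Rb1 had no entry. The motifs, read on both strands, were CACGTG, the E-box bound by MYC and MAX; TTTGAA, the core of the CHR element of mitotic promoters; and the E2F words GCGCCAAA, GCGCGAAA, GCGGCAAA and GCGGGAAA with their reverse complements. CACGTG occurred 4 times in the Cdk4 window and 1 time in the Cdk6 window, and in no window of the other members found. It occurred in 6.02% of all 32851 windows of this length, and 4 or more times in 7 of them. No member window held TTTGAA, found in 16.0% of all windows, or an E2F word, found in 1.86%. Both windows are shown because they belong to the 2 members that were higher in both cycling classes, with CACGTG in capitals; each is on the plus strand, Cdk4 at chr10:127063285-127063534 and Cdk6 at chr5:3343643-3343892.
Cdk4: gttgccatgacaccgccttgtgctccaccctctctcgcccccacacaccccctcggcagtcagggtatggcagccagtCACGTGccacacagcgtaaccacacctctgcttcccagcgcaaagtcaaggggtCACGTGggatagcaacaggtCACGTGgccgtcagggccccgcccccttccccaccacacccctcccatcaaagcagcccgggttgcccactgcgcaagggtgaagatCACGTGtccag
Cdk6: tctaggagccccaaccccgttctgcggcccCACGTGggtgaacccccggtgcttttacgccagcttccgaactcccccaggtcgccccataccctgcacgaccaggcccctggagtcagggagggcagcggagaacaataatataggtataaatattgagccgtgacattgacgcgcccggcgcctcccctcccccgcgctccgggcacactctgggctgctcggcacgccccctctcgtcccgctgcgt
The count of 4 or more was set after the sequences were seen. A match describes the letters only, and no binding was measured.

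The inhibitors did not share a pattern. Cdkn2c was far higher in G2/M cells, which held 67 of its 115 UMIs. Its level was 5.58 CPM in cells with no cycle transcripts, 11.1 CPM in between, 12.7 CPM in S phase and 74.8 CPM in G2/M. G2/M cells were at 13.4 times the level of cells with no cycle transcripts (5.85 to 37.8), from 67 and 6 UMIs, with 13.1 times in aliquot 1 and 13.2 times in aliquot 2. From thinned UMIs the ratio was 6.32, from 10 and 3 UMIs, and in the LT-HSC marker cells alone it was 15.6, from 20 and 4 UMIs, both too few to be called. S phase cells held only 7 UMIs, too few to be measured. The G2/M level was 5.91 times the S phase level (2.71 to 15.3). At equal depth the shares of cells with a Cdkn2c UMI were small, 2.49% of G2/M cells (1.20 to 4.53%) and 0.394% of cells with no cycle transcripts (0.0813 to 1.15%). In barcodes under 200 UMIs the gene stood at 7.20 CPM (1.96 to 18.4), about the level of the cells with no cycle transcripts.

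Cdkn1b was somewhat lower in G2/M cells. It stood at 102 CPM in cells with no cycle transcripts, 80.8 CPM in between, 77.7 CPM in S phase and 66.9 CPM in G2/M. The G2/M ratio was 0.655 (0.470 to 0.905), with 0.765 in aliquot 1 and 0.621 in aliquot 2. The S phase ratio was 0.761 (0.522 to 1.09), within counting error of 1. Within the LT-HSC marker cells alone the G2/M ratio of Cdkn1b was 0.806, with stricter classes 0.761 and from the mean of single-cell CPM 0.858, none of them past 1.5-fold. Cdkn1a held 10 UMIs in cells with no cycle transcripts, 5 in S phase cells and 4 in G2/M cells, and could not be measured. Inhibitors made up 18.7% of all inhibitor and D cyclin UMIs in G2/M cells (15.9 to 21.8%) and 9.84% in cells with no cycle transcripts (8.26 to 11.6%). Of the 131 inhibitor UMIs in G2/M cells, 67 were of Cdkn2c, 60 of Cdkn1b and 4 of Cdkn1a. Ccnd2, the most abundant D cyclin, was at 0.427 times there, so the share does not show a rise of the inhibitors as a group.

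Rb1 had nearly the same level in every class, 24.2 CPM in cells with no cycle transcripts, 23.5 CPM in between, 21.7 CPM in S phase and 21.2 CPM in G2/M. The intervals were wide: the G2/M ratio was 0.877 (0.459 to 1.65) and the S phase ratio 0.898 (0.413 to 1.84), from 19 and 12 UMIs. The S phase ratio was 3.28 when the cells were thinned with another random seed, and the G2/M ratio was 0.495 with stricter classes, so the class levels of Rb1 are not settled at this depth. Rb1 overlaps Rcbtb2 by 24171 bases and Lpar6 by 5400 bases on the opposite strand, and no source used here says whether the counting used strand. The same holds for Ccnd1 with LTO1, Ccnd3 with Bysl and Cdk4 with Tspan31, where reads of the pair cannot be told apart without strand. It also holds for Ccnd2 with 9330179D12Rik (2805 bases) and Gm43126, Cdk6 with Gm17590 (8013 bases) and Gm42435, and Cdkn1a with AC167363.2. Rb1 overlaps Gm17233 by 3649 bases on the same strand, which strand would not resolve.

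Against the background, 3 of the 8 members measured in G2/M were higher (Cdk4, Cdk6 and Cdkn2c), where 14.5% of 9104 features were called higher, and 3 were lower (Ccnd1, Ccnd2 and Cdkn1b), where 18.7% were called lower. In S phase, 3 of 7 were higher (Ccnd1, Cdk4 and Cdk6), where 12.7% of 7731 features were called higher, and none was lower, where 16.7% were called lower. The median log2 ratio of the measured members was 0.09 in G2/M and 0.48 in S phase, against -0.07 and -0.05 over all measured features. Members passed or missed the minimum by their UMIs in both sets together, so Cdkn1a was left out of both counts and Cdkn2c of the S phase count. Cdkn2c passed the minimum in G2/M through its 67 UMIs in G2/M cells, with 6 in cells with no cycle transcripts. Its place among the higher members thus rests on the class where it is high.

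**Figure D3:**
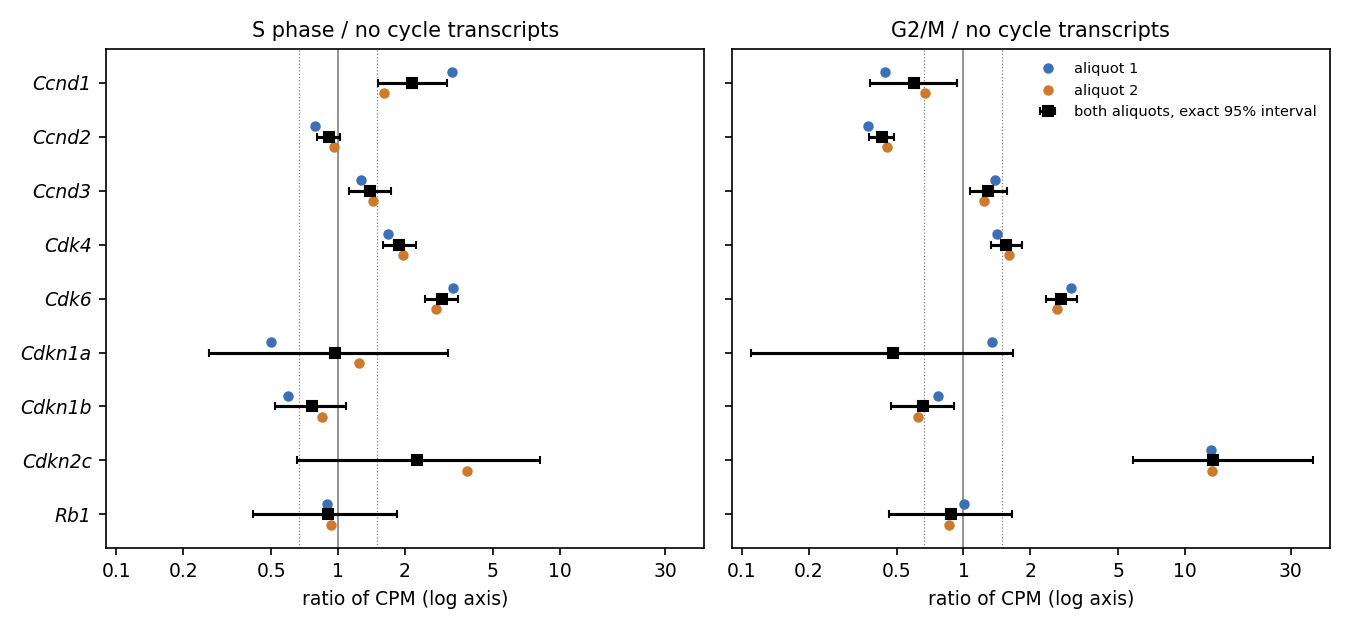
Ratio of summed CPM, on a log axis, of S phase cells (left) and G2/M cells (right) over cells with no cycle transcripts, with black squares for both aliquots and exact 95% intervals, blue and orange points for aliquots 1 and 2, and dotted lines at 1.5-fold. Cdk6 and Cdk4 lie right of 1 in both panels and Ccnd2 left of 1 in G2/M, at 0.427; the aliquots with a ratio of 0, Cdkn2c in S phase of aliquot 1 and Cdkn1a in G2/M of aliquot 2, have no point.

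**Figure D4:**
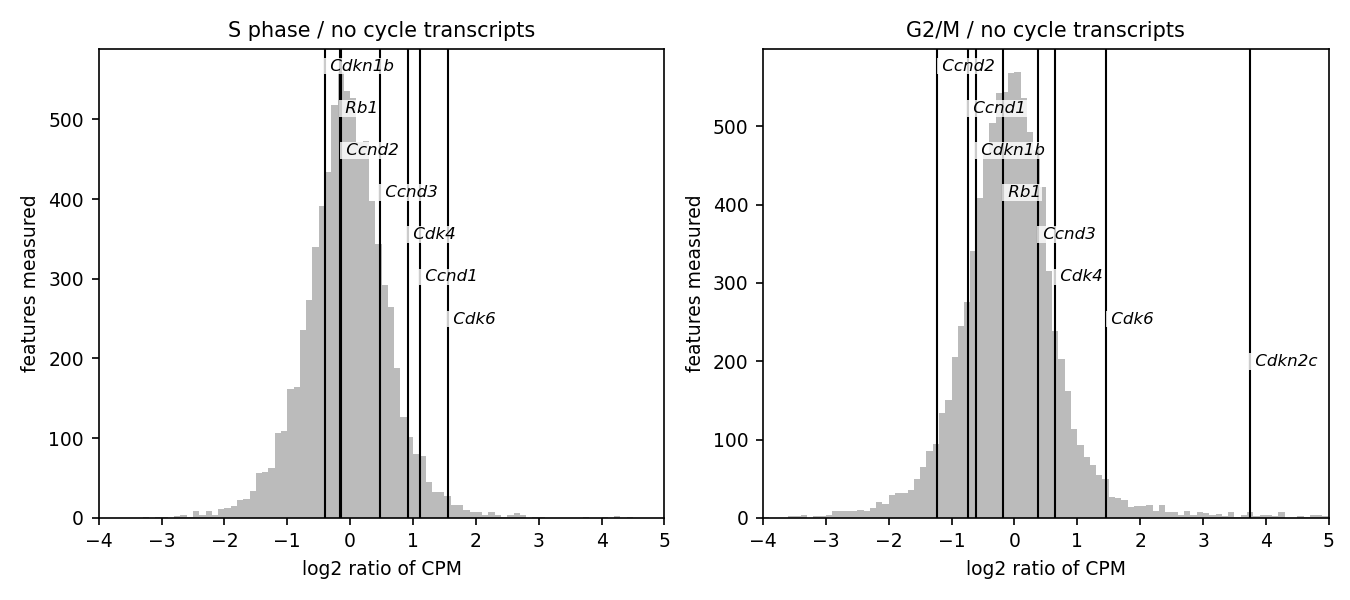
Distribution of the log2 ratio of CPM over all measured features (grey, features per bin) for S phase cells (left) and G2/M cells (right) over cells with no cycle transcripts, with a black line for each measured member. Cdk6 lies in the upper tail of both panels, Cdkn2c lies farther out in G2/M than 99.2% of features, and Rb1 lies near the centre of both.

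Other genes of the pathway were taken from 5 lists of 47 features that hold neither members nor genes used to class the cells. Over all measured features, 14.5% were called higher and 18.7% lower in G2/M, and 12.7% higher and 16.7% lower in S phase. The lists are small, and none was tested against these shares. Of the partner kinases and later cyclins, 2 of 6 measured were called higher in G2/M and none lower. Ccna2, the cyclin of S phase and G2, stood at 366 CPM in G2/M cells, with 328 UMIs, and had 1 UMI in cells with no cycle transcripts, a ratio of 394 (70.2 to 15602). Because the classes were set by S phase and mitotic transcripts, this ratio for a cycle gene is not a result apart from the sorting. That limit also holds for other cycle genes of the lists, such as E2f1, Rbl1, Lin9, Lin54 and Cks1b, and for counts that include them. Cdk2, the kinase that acts after CDK4 and CDK6, was at 1.52 times in both G2/M (1.16 to 2.01) and S phase (1.11 to 2.08). It was the only one of 5 measured that was called in S phase.

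Of the other CDK inhibitors, 2 of 4 were measured. Cdkn1c, which encodes p57, was lower in both cycling classes, at 0.500 times in G2/M (0.327 to 0.750) and 0.371 times in S phase (0.203 to 0.637). Cdkn2d, which encodes the INK4 inhibitor p19, was at 2.63 times in G2/M (1.98 to 3.52), like Cdkn2c a higher level in G2/M cells, and at 0.640 times in S phase (0.386 to 1.03). Cdkn2a and Cdkn2b had 0 UMIs in these 3 classes, which allows up to 3.35 CPM in G2/M cells, 5.42 CPM in S phase cells and 2.79 CPM in cells with no cycle transcripts.

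Of the pocket proteins and E2F factors, 6 of 14 measured were called higher and 2 lower in G2/M, and 4 of 10 higher and none lower in S phase. E2f1, an activator of replication genes, stood at 139 CPM in S phase cells and 6.50 CPM in cells with no cycle transcripts, a ratio of 21.4 (9.90 to 55.0). In G2/M cells E2f1 was at 6.86 times (3.04 to 18.2). The relatives of Rb1 went apart: Rbl1, which encodes p107, was at 2.80 times in S phase (1.74 to 4.54) and 2.63 times in G2/M (1.71 to 4.13), while Rbl2, which encodes p130, was at 0.555 times in G2/M (0.366 to 0.830). Lin9 and Lin54, of the MuvB core shared by repressing and activating complexes on cell cycle genes, were at 3.27 times (1.87 to 5.96) and 4.48 times (2.26 to 9.65) in G2/M.

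Of the genes that control inhibitor and cyclin turnover, 3 of 9 measured were called higher in G2/M and none lower. Skp2, the ubiquitin ligase subunit that marks p27 for breakdown, was at 2.73 times (1.295 to 6.14), and Cks1b, its cofactor, at 12.7 times (9.34 to 17.6). In S phase 1 of 6 was higher, Cks1b at 6.10 times, and 1 lower, Gsk3b at 0.606 times (0.367 to 0.970).

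Of 10 upstream regulators, all measured, 5 were called lower and 1 higher in G2/M, and 4 lower and 1 higher in S phase. Foxo1, a factor that holds stem cells in quiescence, was at 0.447 times in G2/M (0.288 to 0.678) and 0.430 times in S phase (0.247 to 0.713), and Foxo4 at 0.502 times (0.311 to 0.791) and 0.407 times (0.211 to 0.730). The MYC genes split: Mycn was at 0.385 times in G2/M (0.309 to 0.476) and 0.493 times in S phase (0.387 to 0.622), while Myc was at 1.56 times in S phase (1.29 to 1.88) and 0.787 times in G2/M (0.645 to 0.958). Trp53 was at 1.58 times in G2/M (1.31 to 1.91), though at 1.05 times in aliquot 1.

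Reporter transcripts marked 71 kept cells with at least 1 GFP UMI, 23 in aliquot 1 and 48 in aliquot 2, set against 3331 cells without one. A cell without a GFP UMI may still be a GFP+ cell, since a single transcript is easily missed at this depth. Stray reporter UMIs are possible too: in barcodes under 200 UMIs, 11 of 6492 held a GFP UMI, 19.8 CPM (9.88 to 35.4), against 21.9 CPM (18.2 to 26.1) in kept cells. Per UMI the reporter was thus within counting error of the low barcodes, and a cell with 1 GFP UMI need not be a GFP+ cell. Of the 9 members, 5 had enough UMIs to be measured and none was called, where 5.18% of 2759 features were called higher and 11.1% lower.

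Ccnd2 stood at 839 CPM in reporter cells (693 to 1007) and 745 CPM in other cells, a ratio of 1.13 (0.928 to 1.36), with 0.877 in aliquot 1 and 1.21 in aliquot 2. Cdk6 stood at 328 CPM in reporter cells and 405 CPM in other cells, a ratio of 0.811 (0.590 to 1.09). That ratio was 0.192 in aliquot 1, where reporter cells held 2 Cdk6 UMIs, and 0.972 in aliquot 2. Cdk6 was called lower under 3 other settings, at 0.465 times from thinned UMIs, 0.581 times from the mean of single-cell CPM and 0.452 times without erythroid or megakaryocyte marker cells. Cdk4 was at 0.905 times (0.653 to 1.22), Ccnd3 at 0.811 times (0.523 to 1.20) and Cdkn1b at 0.883 times (0.421 to 1.64). Each of these 5 intervals holds 1, which does not show that the levels are alike.

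Too few UMIs were found for the rest. Ccnd1 had 9 UMIs in reporter cells, 65.7 CPM, against 68.9 CPM in other cells. Cdkn1a had 4 UMIs, all from aliquot 2 and in 3 cells, and a ratio of 3.76 (0.979 to 10.3). Rb1 had 3 UMIs, and Cdkn2c had 0, which allows up to 21.9 CPM, against 20.8 CPM in other cells, so a difference was not detectable at this depth. The D cyclin pool of reporter cells was 77.2% Ccnd2 (69.6 to 83.7%), against 71.7% in other cells (70.5 to 72.9%).

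By number of reporter UMIs, Ccnd2 had unlike levels in aliquot 2 only. In the 30 cells with 2 or more GFP UMIs it stood at 1124 CPM (881 to 1414), a ratio of 1.51 to cells without a GFP UMI (1.18 to 1.90). In the 41 cells with 1 GFP UMI it stood at 583 CPM (420 to 788), 0.782 times (0.563 to 1.06). The higher level came from aliquot 2, at 1.69 times with 2 or more GFP UMIs and 0.752 times with 1. Aliquot 1 gave 0.784 times, from 6 UMIs, and 0.938 times, so neither set was called. At equal depth 50.0% of the cells with 2 or more GFP UMIs held a Ccnd2 UMI (31.3 to 68.7%), against 29.7% of cells without a GFP UMI. For Ccnd3, Cdk4 and Cdk6 the intervals of both sets of reporter cells overlapped and held 1. Reporter cells also held more LT-HSC transcripts, 3489 against 2879 CPM over the list, and fewer granulocyte transcripts, 248 against 2311 CPM. The part of these in the Ccnd2 level was not tested. The LT-HSC list includes Mecom, the locus of the reporter, so it is not independent of the GFP UMIs. Granulocyte or basophil marker cells were 1.21% of kept cells, so few would be expected among 71 reporter cells.

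**Figure D5:**
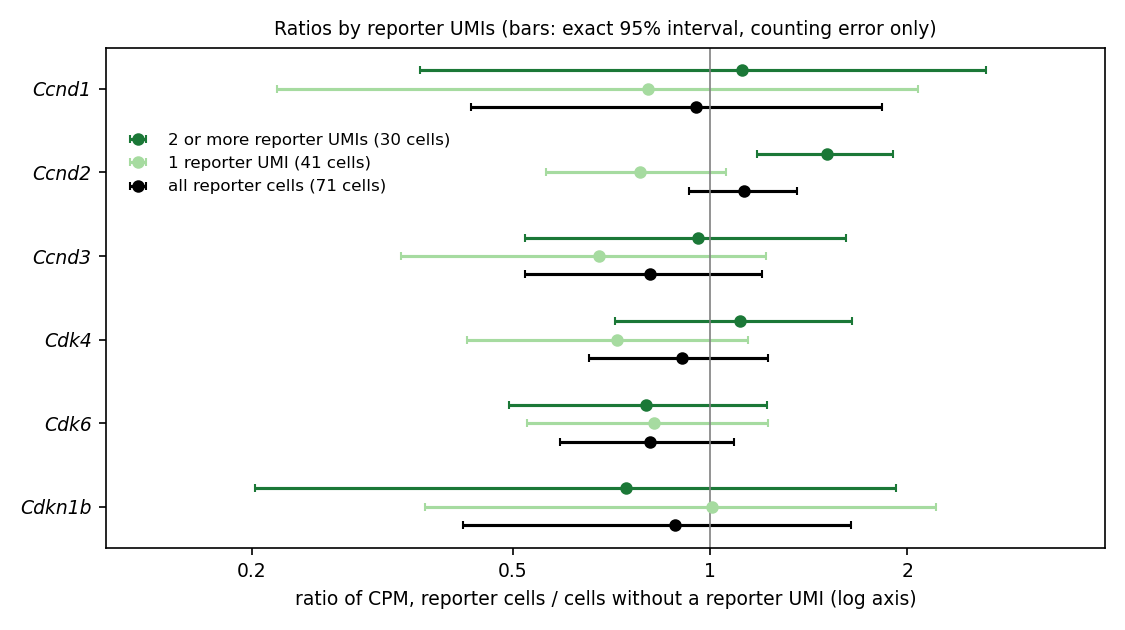
Ratio of summed CPM over cells without a reporter UMI, on a log axis, for cells with 2 or more reporter UMIs (dark green), with 1 reporter UMI (light green) and for all 71 reporter cells (black), with exact 95% intervals for counting error. The interval of Ccnd2 in cells with 2 or more reporter UMIs, 1.18 to 1.90, is the only one of those drawn that leaves out 1.

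Pathway genes outside the member list were measured for few features in reporter cells. Mycn stood at 752 CPM in reporter cells and 229.6 CPM in other cells, a ratio of 3.27 (2.65 to 4.00), and Cul1, the scaffold of the SCF ubiquitin ligase, at 1.83 times (1.17 to 2.73). Cdc37, the chaperone partner that loads CDK4, was at 0.577 times (0.287 to 1.04). Cks1b was at 0.657 times (0.381 to 1.06).

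Within single cells, few held more than a part of the module. Of kept cells, 31.6% had no D cyclin UMI, 48.0% had UMIs of 1 D cyclin gene, 18.1% of 2 and 2.26% of all 3. A D cyclin together with Cdk4 or Cdk6 was found in 38.6% of kept cells, in 9.58% after thinning to 500 UMIs, and in 51.3% of the 1044 cells that could be thinned to 2000 UMIs, so this share follows depth. No inhibitor UMI was found in 86.4% of kept cells.

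Co-detection was close to what the separate shares give within each aliquot. After thinning to 500 UMIs, 15 pairs of members had at least 10 cells expected with both genes, and 7 of them were found together more often than that. Cdk4 and Cdk6 were together in 91 cells where 72.5 were expected, 1.25 times (1.01 to 1.54). That excess was 56 against 39.7 in aliquot 1 and 35 against 32.8 in aliquot 2, and it was 1.07 times in the cells thinned to 2000 UMIs, 211 against 197. Within the cycle classes the ratio at 500 UMIs was 1.21, with 75.3 cells expected, which the interval of the 91 cells (73.3 to 112) holds. Larger ratios, with intervals that hold 1, were those of Ccnd3 with Cdkn1b at 1.37 (0.814 to 2.17) and Ccnd1 with Ccnd2 at 1.34 (0.958 to 1.81). Ccnd2 with Cdkn1b was at 1.31 (0.970 to 1.72). These ratios did not hold at greater depth. In the cells thinned to 2000 UMIs, Ccnd3 with Cdkn1b fell below 1, at 0.702 (0.455 to 1.04), 25 cells against 35.6. Ccnd1 with Ccnd2 was at 1.13 there and Ccnd2 with Cdkn1b at 1.06. Ccnd2 was with Cdk4 in 135 cells where 151 were expected and with Cdk6 in 133 where 147 were expected, both within counting error. Cdkn1b was with Cdk4 in 12 cells where 18.9 were expected and with Cdk6 in 12 where 18.4 were expected. Both intervals, 0.327 to 1.11 and 0.337 to 1.14, hold 1, and at 2000 UMIs the ratios were 0.923 and 0.961. Weak associations in counts this sparse are descriptions only.

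Genes with the most similar pattern were taken as the nearest of 5310 features over 8 levels, the 4 classes in each aliquot. The measure was the Euclidean distance of centred log2(CPM + 10). The added 10 flattens the pattern of genes at low levels, such as Rb1 and Cdkn2c. The nearest to Ccnd2 were Paqr7 at 0.46 and Prkag2 at 0.49, which also had their lowest level in G2/M. For Cdk6 they were Psat1, an enzyme of serine synthesis, at 0.38 and Hat1, a histone acetyltransferase, at 0.41. For Cdk4 they were Gart, an enzyme of purine synthesis, at 0.21 and Mmgt1 at 0.23, and for Ccnd3 the proteasome subunit gene Psma7 at 0.17. For Cdkn2c the nearest were Arhgap11a at 1.08 and Tuba1c at 1.098, which are far in this measure, and for Ccnd1 Bag2 at 0.57 and Tor3a at 0.73. Rb1 was nearest to the ribosomal protein genes Rps15 at 0.19 and Rpl31 at 0.21, and Cdkn1b to Phf12 at 0.23 and Bri3 at 0.25.

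On GRCm38, GENCODE vM21 places Ccnd2 at 127125162 to 127152193 of chromosome 6 (minus strand) and Cdkn1b, the other member on that chromosome, at 134920401 to 134925513 (plus strand). Cdk6 spans 3341485 to 3531008 of chromosome 5 and Cdk4 127063534 to 127067920 of chromosome 10, both on the plus strand. Ccnd1 lies at 144929931 to 144939925 of chromosome 7, Cdkn2c at 109660876 to 109667189 of chromosome 4 and Rb1 at 73183673 to 73325822 of chromosome 14, each on the minus strand. Ccnd3 lies at 47505051 to 47599691 and Cdkn1a at 29090976 to 29100727 of chromosome 17, on the plus strand. All are annotated as protein-coding, and UMI counts are per gene, without regard to exon or isoform.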

How the data were processed

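The deposited counts are whole-number UMI counts per feature and barcode, with no normalization by the authors, from 2 inDrops libraries of polyA RNA. Bowtie 1.1.1, SAMtools 1.3.1, RSEM 1.3.0 and GRCm38 are named in the submitters' processing notes, without roles or settings. The reporter was counted against its cassette sequence, per the labels.

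A barcode was kept as a cell if it had 500 UMIs or more, reporter excluded, and no more than 20% of them mitochondrial; kept cells held 1640734 UMIs in aliquot 1 and 4027333 in aliquot 2. Counts were summed over cells and scaled to 1000000 (CPM). Exact Poisson, conditional binomial and Clopper-Pearson intervals at 95% cover counting error only, and where no UMI was found, 3 UMIs in that cell set were taken as the limit. Cells were thinned without replacement to 500 or 2000 UMIs to set classes and compare shares. Expected co-detection is the product of the 2 genes' shares of cells, summed over the aliquots. Of the mitotic list, 1 symbol had no feature. Scrublet was run per aliquot at an expected rate of 6%. The ratio script was tested on simulated data. Scripts ran in Python 3.11.15 with scanpy 1.11.5, scipy 1.17.1 and numpy 2.4.6.

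The pathway genes described are a selection, and not all that were called or had at least 100 UMIs are described. Kpna2, Mybl2, E2f3, E2f5, E2f7, Foxo3 and Btg1 were also called in G2/M or S phase. The 2 nearest patterns per member were taken among features with at least 200 UMIs. The members, lists, cycle classes and settings were chosen with earlier results of these data known. Alternatives changed the class limits, the seed, the filters, the fold, the aliquots used and the marker cells kept. Sequences are RefSeq's. Protein sequences were not used here. The values of 1 listed pathway gene are not reported here.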

Additional observations from a re-analysis of the deposited data

Results flagged for a closer look

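Barcodes under 500 UMIs, which no comparison between cell sets used, held 1395 UMIs of the 9 genes. There were 7372 such barcodes with a median of 82 UMIs. Their levels were close to those of kept cells for most members: Ccnd2 stood at 636 CPM (583 to 693) in these barcodes and 747 CPM in kept cells, Ccnd3 at 216 and 224 CPM, and Cdkn1b at 81.2 and 82.4 CPM. Cdkn2c was lower, at 7.16 CPM (2.63 to 15.6) from 6 UMIs in these barcodes, against 20.3 CPM (16.8 to 24.4) in kept cells, and Cdkn1a was at 16.7 CPM (9.14 to 28.0) and 8.29 CPM (6.09 to 11.03).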

How the results depend on the processing

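The G2/M count of 6 called members was 3 at a 2-fold limit (Cdk6, Cdkn2c and Ccnd2), and 4 to 5 when either aliquot was left out: Ccnd1 was not called without aliquot 1, nor were Cdk4 and Cdkn1b without aliquot 2. Ccnd1 also lost its call with looser classes (0.891 times), and with stricter classes Cdkn1b lost its call while Rb1 gained 1. The S phase count of 3 was 5 with stricter classes and 6 with another thinning seed, with Ccnd3 and Cdkn1b added in both cases and Rb1 in the second; it was 3 to 4 when either aliquot was left out. The reporter count of 0 was 1, with Cdk6 lower, from thinned UMIs (0.465 times), from the mean of single-cell CPM (0.581 times) and without erythroid or megakaryocyte marker cells (0.452 times), and it ran from 0 to 1 when either aliquot was left out (0.192 times in aliquot 1). The cause was not tested. From thinned UMIs, Ccnd1 and Cdkn2c lost their G2/M calls and Cdk4 its S phase call. In cells with LT-HSC transcripts only, the counts were 4 in G2/M, without Cdkn1b and Cdkn2c, 2 in S phase, without Ccnd1, and 0 for the reporter. The alternatives on shared barcode names and on erythroid, megakaryocyte or LT-HSC marker cells were chosen after seeing the data. The number of co-detected pairs above expectation ran from 6 to 7 when either aliquot was left out. No called value changed direction; of 441 values of single genes, 399 moved by less than their interval and 42 by more. No paired analysis was possible because both libraries are aliquots of 1 pool and no test was run. Depth limits Cdkn1a, Cdkn2c and Rb1 most.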
